A study of Mus musculus with 4 samples.

Results

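The genes described here are 10 members of the insulin-like growth factor (IGF) axis: the ligand gene Igf1, its receptor gene Igf1r, the binding protein genes Igfbp2, Igfbp3, Igfbp4, Igfbp5, Igfbp6 and Igfbp7, and the receptor adaptor genes Irs1 and Irs2. They were chosen by name, and their probes were found by the RefSeq accession that the array files give. All 10 passed the filter on dim probes, out of 13567 named genes tested, and together they had 15 probes. The cells were primary cultured mouse mesenchymal stromal cells (MSCs), fibroblast-like cells that can form bone, cartilage and fat, at passage 5. All of them had been transduced with a retrovirus that expresses a short hairpin RNA. The shControl group was 1 array with a control hairpin. The shIslr group was 3 arrays, each with a hairpin against another stretch of Islr, which encodes the secreted and membrane-anchored protein Meflin. They are called hairpins 1, 2 and 3 after their label numbers. Strain, age, sex and tissue of origin of the cells, the sequence of the control hairpin and the number of cell preparations are not given in the sources used here. Each hairpin stands on 1 culture and 1 array, so that a hairpin and its array cannot be told apart.

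IGF1 is a secreted growth factor made by the liver under growth hormone and by many stromal cells for local use. It binds the receptor tyrosine kinase IGF1R, which phosphorylates the docking proteins IRS1 and IRS2 and so turns on PI3K, AKT and MAP kinase signalling. Most IGF outside cells is held by the binding proteins IGFBP1 to IGFBP6, which lengthen its life and limit its access to the receptor until proteases such as PAPP-A cut them. IGFBP7 shares their amino-terminal domain but binds IGF weakly. In stromal cells and in the bone and cartilage cells that come from them, IGF1 promotes growth and matrix production.

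Every value below is either the processed signal of a probe, which is a fluorescence intensity, or a log2 difference, hairpin minus control, after each array was divided by its 75th percentile. Those percentiles were close (442.5 for the control and 414.7, 435.3 and 433.5 for hairpins 1 to 3), and each array had between 49.4% and 53.8% of its features above background. A probe's signal cannot be set against another probe's, so levels are compared within a gene only. The sums of marker signals given below add different probes and are led by the brightest of them. As a yardstick of the spotting error alone, features of the same probe on the same array had a pooled SD of 0.06 on the log2 scale at signals over 1000, 0.08 between 200 and 1000, 0.15 between 50 and 200 and 0.32 under 50. All 9 stromal markers looked up (among them Pdgfra, Thy1 and Col1a1) were above background on every array. So were 4 of 7 blood cell markers (Cd14, Cd68, Csf1r and Itgam) and 2 of 5 endothelial markers, Kdr (3251 to 3532 on its probe of highest signal) and Pecam1 (52.8 to 59.3). The epithelial markers Krt5 and Krt14 were above background on some arrays, at signals of 19.6 to 28.5 there. The remaining markers were above background on none: Ptprc, Adgre1 and Tyrobp of blood cells, Cdh5, Tek and Emcn of endothelium and Epcam, Cdh1 and Krt8 of epithelium.

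Islr, the target, read 454 with the control hairpin and 70.5 with hairpin 2, which left 15.8% of the control level. On hairpins 1 and 3 its signals of 11.0 and 3.44 were not above background. At most 4.89% and at most 3.38% were left there, counted against the lowest signal that the scanner software called above background on those arrays. That signal is not the limit of this probe, so these bounds are nominal.

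For 6 members the 120 bases before a RefSeq transcription start are shown, as examples of start regions of different kinds: the ligand, the binding proteins with a TATA-like string in this stretch, and both adaptors. They come from RefSeq promoters of build GRCm38.p6, in which all 10 members were found, and run 5′ to 3′ on the gene's strand. Their positions are chr10:87860991-87861110 (plus strand) for Igf1, chr11:7213924-7214043 (minus strand) for Igfbp3, chr11:99041124-99041243 (plus strand) for Igfbp4, chr1:72874866-72874985 (minus strand) for Igfbp5, chr1:82291440-82291559 (minus strand) for Irs1 and chr8:11008930-11009049 (minus strand) for Irs2. Only this start is shown for each gene. Capitals mark matches, searched on both strands. One TATA-like string was TATAAA, another was TATATA and the last was TATTTAA. The E-box was CACGTG, and the GC box was GGGCGG.
Igf1: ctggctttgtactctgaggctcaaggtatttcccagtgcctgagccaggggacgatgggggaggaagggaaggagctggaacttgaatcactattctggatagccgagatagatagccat
Igfbp3: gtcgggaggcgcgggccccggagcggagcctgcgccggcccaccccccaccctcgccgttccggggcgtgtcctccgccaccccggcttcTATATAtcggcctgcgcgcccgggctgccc
Igfbp4: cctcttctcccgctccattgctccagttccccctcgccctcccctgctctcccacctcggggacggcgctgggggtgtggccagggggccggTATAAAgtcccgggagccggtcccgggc
Igfbp5: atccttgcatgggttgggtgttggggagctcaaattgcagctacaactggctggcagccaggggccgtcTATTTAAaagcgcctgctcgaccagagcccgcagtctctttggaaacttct
Irs1: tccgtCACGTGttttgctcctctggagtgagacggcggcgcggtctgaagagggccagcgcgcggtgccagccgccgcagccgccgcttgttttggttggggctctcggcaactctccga
Irs2: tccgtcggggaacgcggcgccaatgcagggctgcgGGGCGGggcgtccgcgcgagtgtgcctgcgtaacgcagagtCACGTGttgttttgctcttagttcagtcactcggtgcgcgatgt
The search covered the 250 bases before each of 32851 RefSeq starts, 11 of them of members. A TATA-like string lay 30 bases before the start of Igfbp3, 28 before that of Igfbp4 and 51 before that of Igfbp5, and further away, at 148 bases, in Igfbp6. At least 1 of the 3 strings was in 18.6% of all windows. The E-box was in Irs1, Irs2 and Igfbp2 and in 6.02% of all windows. The GC box was in Igf1r, Igfbp2, Igfbp7, Irs1 and Irs2 and in 32.7% of all windows. The growth hormone response string TTCNNNGAA, bound by STAT5, and the FOXO string GTAAACA were in none of the 11 member windows and in 7.02% and 3.17% of all windows. A match is a string of letters and not a shown binding site, and a window without one says nothing about the factor.

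Igf1, the ligand, was lower on all 3 hairpins, by amounts that differed from hairpin to hairpin. Its probe of highest signal read 3714 on the control array, 2921 on hairpin 1, 1846 on hairpin 2 and 1173 on hairpin 3. Each hairpin lay below the control, hairpin 1 only a little and hairpin 3 the farthest. The log2 differences were -0.25, -0.98 and -1.63, which is 1.19-fold, 1.98-fold and 3.10-fold lower. Of all genes tested, 2.46% were at least as far below the control on hairpin 3, 4.19% on hairpin 2 and 21.3% on hairpin 1.

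The order of the arrays was the same on all 4 Igf1 probes. The difference from the control ran from -0.62 to -0.25 over the probes on hairpin 1, from -1.16 to -0.98 on hairpin 2 and from -2.07 to -1.63 on hairpin 3. From hairpin 1 to hairpin 2 the step was -0.83 to -0.40, and from hairpin 2 to hairpin 3 it was -0.91 to -0.65. Each probe was spotted in 2 features, and over the 16 pairs of features these differed by 0.03 to 0.25. The steps between arrays were thus larger than the difference between features of a probe, except that on hairpin 1 the smallest step from the control (0.25 in size) was about as large as the widest of those pairs. The 4 probes read the same labelled RNA, so their agreement covers the measurement on the array and not the culture.

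**Figure D1:**
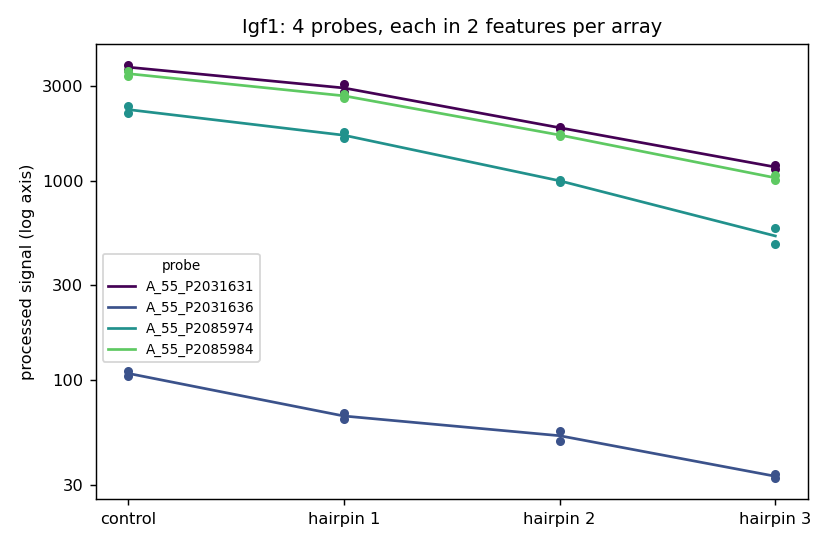
Processed signal of the 4 Igf1 probes on the control array and on hairpins 1 to 3 (log axis). Points are single features, 2 per probe and array, and lines join their geometric means. All 4 probes step down from the control to hairpin 3, for instance from 3714 to 1173 in the probe of highest signal.

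As a group, the 3 hairpins differed from the control in Igf1 by a mean of -0.96 ± 0.69 (SD, n = 3 hairpins, SE 0.56), or 1.94-fold. The adjusted p from limma was 0.964, with the variation among hairpins as the error. The mean was -1.31 without hairpin 1 and -0.62 without hairpin 3. Hairpin 2, with the most Islr left, was between the other two in Igf1. Stromal markers went both ways: Pdgfra read 9101 on the control and 7944, 4024 and 3955 on hairpins 1 to 3, while Thy1 read 1603 and then 4815, 2971 and 2686. The sum of all 9 was 514082 for the control and 435862, 507133 and 448106 for hairpins 1 to 3. It was carried by the brightest probes, Col1a2 first (259258 for the control and 235573, 250846 and 213350 for hairpins 1 to 3). Dimmer markers such as Pdgfra and Thy1 hardly enter it. The summed signal of the 7 blood cell markers was 11790 for the control and 11807, 10308 and 7809 for hairpins 1 to 3. Most of that sum came from 1 probe of Itgam (8880 for the control and 8743, 7547 and 4960 for hairpins 1 to 3), whose other 2 probes were between 17.5 and 38.1. Csf1r, on its probe of highest signal, read 1368 for the control and 1116, 1074 and 1022 for hairpins 1 to 3. Cd68 read 475 for the control and 257, 256 and 387. Both were lower on every hairpin, as that Itgam probe was. Cd14 of the same list read 1041 for the control and 1661, 1400 and 1407, higher on every hairpin, and Ptprc, Adgre1 and Tyrobp were not above background. The part of these markers' cells in the Igf1 values was not tested, and in bulk RNA fewer cells of a type and less RNA per cell cannot be told apart.

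Of the 12715 other genes above background on all 4 arrays, Pcdhb6, Gbp4 and Fsd1 had the 3 differences nearest to those of Igf1, with a root mean square distance of 0.10, 0.11 and 0.12 on the log2 scale. Pcdhb6, a protocadherin gene, read 401, 310, 197 and 143 on the control and hairpins 1 to 3. Gbp4, a guanylate-binding protein gene, read 109, 80.0, 57.5 and 37.7. Fsd1 read 268, 190, 122 and 81.8. With 3 differences per gene and so many genes, near matches are many, and likeness to Igf1 and Igfbp3 was looked up outside the naming rule, after their values had been seen.

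Igf1r, the receptor that carries the IGF1 signal, differed little between arrays. It read 4788 for the control and 4685, 4164 and 4371 for hairpins 1 to 3. The arrays lay within 1.18-fold of each other, and the differences from the control were 0.06, -0.18 and -0.10. The mean was -0.07 ± 0.12 (n = 3), and 74.1% of all genes tested had at least as wide a spread between hairpins. Its adjusted p from limma was 0.986, and with a hairpin left out the mean was between -0.14 and -0.02.

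Among the 10 members, 4 were below the control on all 3 hairpins (Igf1, Igfbp5, Irs1 and Irs2) and 0 were above it on all 3, where 24.6% of all genes tested were below and 27.6% above. Irs1 is counted by its probe of higher signal, and its other probe gave another direction. By limma's test 0 of 10 passed at an adjusted p under 0.05, where 0.346% of all genes did, and 1 (Igfbp5) had an unadjusted p under 0.05, where 4.83% of all genes did. The median difference of the members was -0.21, -0.30 and -0.12 on hairpins 1 to 3, and that of all genes was -0.01, 0.00 and 0.05. A difference of at least 2-fold on all 3 hairpins was seen in Igfbp5, below the control (1.69% of all genes), and in no member above it (0.236%). On single arrays, at least 2-fold lower were 2 members on hairpin 1 (3.99% of all genes), 1 on hairpin 2 (4.1%) and 2 on hairpin 3 (5.45%). At least 2-fold higher were 2 members on hairpin 3 (3.17% of all genes) and none on hairpin 1 (1.46%) or hairpin 2 (1.88%).

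**Figure D2:**
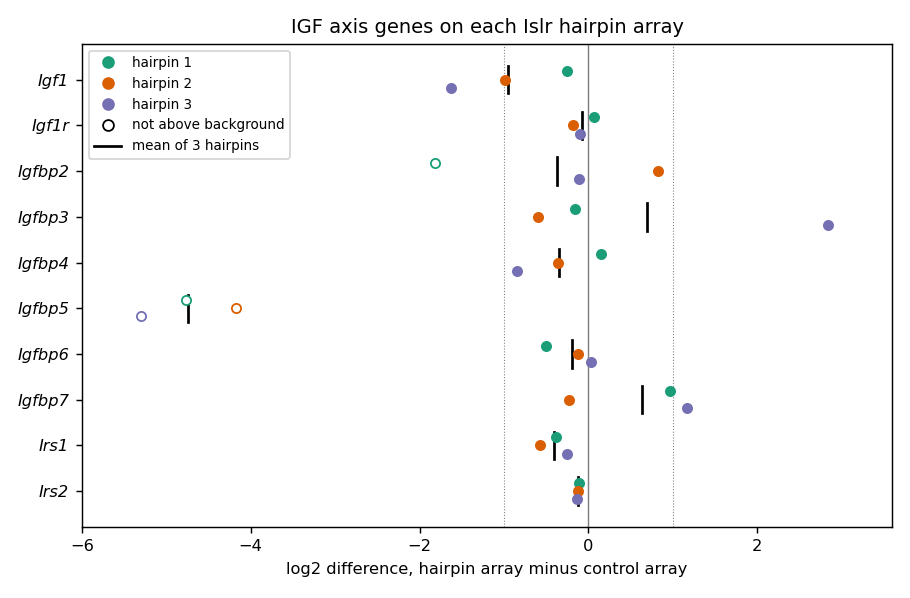
Log2 difference of each hairpin array from the control array for the 10 members, after scaling to the 75th percentile. Coloured points are hairpins 1 to 3, open where the gene was not above background on that hairpin, black bars are the mean of the 3, and dotted lines mark 2-fold. Igf1 steps from -0.25 to -1.63, Igfbp3 has 1 hairpin at 2.84 and Irs2 has all 3 between -0.13 and -0.11.

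The binding proteins differed from each other in which hairpins stood away from the control. Of the 6, 1 was below the control on all 3 hairpins, none was above it on all 3, and 5 had hairpins on both sides, beside 24.6%, 27.6% and 47.8% of all genes tested. Igfbp5 is the most abundant binding protein of bone and is bound by its matrix. It read 153 with the control hairpin and 5.30, 8.33 and 3.82 with hairpins 1 to 3, where it was not above background. The control array thus stood alone, and its level was lower by at least 6.91-fold on hairpin 1, at least 7.92-fold on hairpin 2, at least 10.01-fold on hairpin 3 and at least 8.18-fold for the group. Such a bound is counted against the lowest signal called above background on the array, which is not the limit of this probe.

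With the signals below background taken as they stand, Igfbp5 was at -4.75 ± 0.56 (n = 3), which is not a bound. It passed the filter on dim probes through the control array alone, where it was high, so its p-values rest on that choice and on the spread of signals below background. It missed the threshold of limma's test (adjusted p = 0.0679), passed it with quantile normalization (0.0392), and with normexp background correction shrank to -1.56 (0.549). Igfbp5 has 1 probe in 1 feature on this array, with no outlier flag on any of the 4. Of 28026 named probes, 265 were above background on the control array alone, and 3 of these, Igfbp5 among them, reached a signal of 153. On hairpins 1, 2 and 3 alone there were 165, 291 and 724, of which 5, 4 and 5 reached it. By these counts a signal of this size on 1 array only was no more frequent on the control array than on the others. The cut is the signal of Igfbp5 itself and the counts are few, so they do not judge its difference.

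Igfbp2 is the gene next to Igfbp5 on chromosome 1, and its protein carries an integrin-binding motif. One probe read 72.3 for the control and 19.2, 126 and 65.5 for hairpins 1 to 3. The other read 76.1 for the control and 5.16, 161 and 59.3. On both probes hairpin 1 was not above background, hairpin 2 was the highest array and hairpin 3 was near the control. On hairpin 1 the gene was at least 3.26-fold lower by the first probe and at least 3.43-fold by the second, and on hairpin 2 it was higher by 0.83 and 1.104 on the log2 scale. The pattern was thus not that of its neighbour Igfbp5, which was below background on hairpins 2 and 3 as well. The mean difference of the first probe was -0.37 ± 1.34 (n = 3, limma adjusted p = 0.987), and it was 0.36 without hairpin 1 and -0.97 without hairpin 2.

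Igfbp3, the main carrier of IGF in blood and a gene next to Igfbp1 on chromosome 11, was high on 1 array only. Its signals were 64.9 on the control array, 54.6 on hairpin 1, 42.4 on hairpin 2 and 456 on hairpin 3. Hairpin 3 stood 7.17-fold above the control and 8.0-fold and 10.8-fold above hairpins 1 and 2, which lay slightly below the control (-0.16 and -0.59). On hairpin 3, 29 of all 13567 genes (0.214%) were at least as far above the control. Only 0.339% of genes had as wide a spread between hairpins. Its mean of 0.70 ± 1.87 (n = 3, limma adjusted p = 0.98) describes no hairpin, and it was -0.38 without hairpin 3, 1.12 without hairpin 1 and 1.34 without hairpin 2. The nearest profiles were those of the cytokine gene Tnfsf15 (106 on the control and 101, 71.7 and 913 on hairpins 1 to 3), the serpin gene Serpinb9c and the carbonic anhydrase gene Car2, at distances of 0.20, 0.32 and 0.41. Among probes above background on all 4 arrays, 18 stood at least 4-fold above each other array on hairpin 3, against 0 on the control array, 3 on hairpin 1 and 0 on hairpin 2.

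Igfbp4, a binding protein that holds IGF back from its receptor and is cut by PAPP-A, read 2307 for the control and 2395, 1769 and 1259 for hairpins 1 to 3. Hairpin 1 was slightly above the control (1.11-fold), and hairpin 3 was the lowest array, 1.79-fold below the control. Its differences of 0.15, -0.36 and -0.84 ran in the same order as those of Igf1 and were smaller. The mean was -0.35 ± 0.50 (n = 3, limma adjusted p = 0.97), and it was -0.60 without hairpin 1 and -0.11 without hairpin 3.

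Igfbp7, the weak IGF binder of vessel walls and stroma, split the hairpins in another way. It read 579 on the control array, 1063 on hairpin 1, 485 on hairpin 2 and 1271 on hairpin 3. Hairpins 1 and 3 were 1.96-fold and 2.24-fold above the control, and hairpin 2 was slightly below it. Of all genes tested, 1.57% on hairpin 1 and 2.43% on hairpin 3 were at least as far above the control. The mean difference was 0.63 ± 0.76 (n = 3, limma adjusted p = 0.967), and it was 1.07 without hairpin 2 (0.585) and 0.37 without hairpin 3.

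Igfbp6, which prefers IGF2 over IGF1, read 91045 for the control and 60385, 82375 and 90707 for hairpins 1 to 3. Hairpin 1 was 1.41-fold below the control, and hairpins 2 and 3 were within 1.09-fold of it. Its mean difference was -0.20 ± 0.27 (n = 3, limma adjusted p = 0.971), and it was -0.048 without hairpin 1 and -0.31 without hairpin 3.

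**Figure D3:**
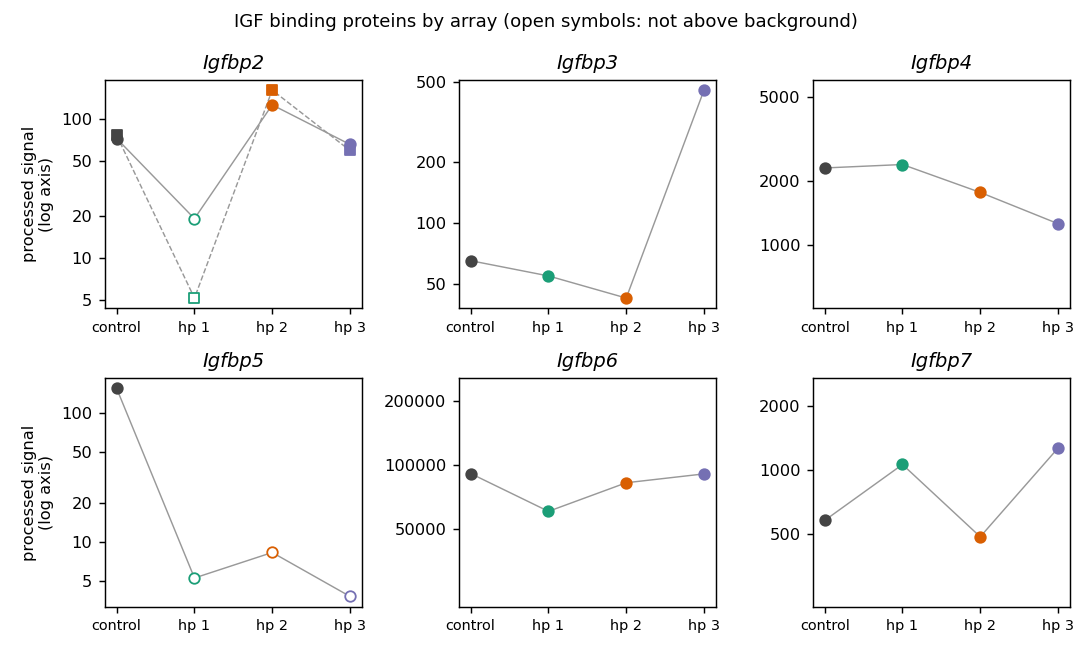
Processed signal of the 6 binding protein genes on the control array and on hairpins 1 to 3 (hp 1 to hp 3), on log axes whose range differs by panel. Points are probes (circles and squares for the 2 Igfbp2 probes), open where the probe was not above background, and lines only join values of 1 probe. Igfbp5 is above background on the control array alone (153), Igfbp3 is high on hairpin 3 alone (456), and Igfbp2 is not above background on hairpin 1.

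Irs2, an adaptor that carries the receptor signal to PI3K, differed from the control by a small and even amount. It read 3309 for the control and 2876, 2996 and 2956 for hairpins 1 to 3. Its 3 differences, -0.11, -0.12 and -0.13, were within 0.02 of each other, and 99.7% of genes tested had at least as wide a spread between hairpins. The mean of -0.12 ± 0.01 (n = 3) is 1.09-fold. Its adjusted p was 0.972 in limma, which draws the error of each gene toward that of all genes. All 3 differences share the control array, whose own error they carry.

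Irs1, the other adaptor, gave different answers on its 2 probes. The probe of higher signal read 2010 for the control and 1440, 1326 and 1655 for hairpins 1 to 3, all below the control. The other read 80.2 on the control array and 73.0, 149 and 147, with hairpins 2 and 3 above it. The mean difference was -0.41 ± 0.16 (n = 3, limma adjusted p = 0.964) on the first and 0.59 ± 0.55 on the second, so no direction is given for Irs1.

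The spread between the 3 hairpins differed among the members. Its median over the 10 was an SD of 0.53, beside 0.20 over all genes tested, and it reached 1.34 in Igfbp2 and 1.87 in Igfbp3. Igf1r (0.12), Irs1 (0.16) and Irs2 (0.01) were below the median of all genes. The SDs of Igfbp2 and Igfbp5 include signals below background. The members were named with earlier results of these data in view, so this is a description of them and not a test.

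Other genes of the pathway were described from a list of 52. Of these, 47 were tested. By limma's test 1 was lower, Igfbpl1, and 0 were higher, where 0.346% and 0% of all genes were. On all 3 hairpins 11 were lower and 10 higher, where 24.6% and 27.6% of all genes were, and 26 had hairpins on both sides. The list median was 0.02, -0.06 and -0.03 on hairpins 1 to 3, beside -0.01, 0.00 and 0.05 for all genes. The genes for IGF2, IGFBP1 and the acid-labile subunit (Igf2, Igfbp1 and Igfals) were above background on no array. Insrr was above background on hairpin 3 alone, and Igf2bp1 on hairpins 2 and 3. Igfbpl1, a binding protein relative, read 80.1 with the control hairpin and was below background on all 3 hairpins. It was at least 4.27-fold lower for the group by the bound used for Igfbp5, which is not the limit of the probe. It passed the filter through the control array alone, so its call (limma adjusted p = 0.0319) rests on that choice and on the spread of signals below background. The call ended with normexp background correction, with an intensity trend, with no filter or another filter and with each hairpin left out.

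Growth hormone drives Igf1 in many tissues. Socs2, a growth hormone target gene whose protein damps the receptor, read 3364 for the control and 1579, 1435 and 1635 for hairpins 1 to 3, each a mean over 10 features. All 3 hairpins lay close together and far below the control, with differences of -0.998, -1.21 and -1.01. The mean was -1.07 ± 0.12 (n = 3, 2.10-fold, limma adjusted p = 0.412, unadjusted p = 0.00434). Its other 2 probes gave -0.99 ± 0.16 each, with hairpins 2 and 3 close together. Ghr, the growth hormone receptor gene, read 7488 for the control and 5528, 2901 and 2842 for hairpins 1 to 3, with a mean of -1.02 ± 0.58 (limma adjusted p = 0.964). On its other probe hairpin 3 was nearer to the control (-0.62) than hairpin 2 (-1.47). Socs2 and Ghr were below the control on all 3 hairpins, as Igf1 was and as 24.6% of all genes tested were. They were 2 of the 6 growth hormone genes in the list. The other 4 had hairpins on both sides, beside 47.8% of all genes tested. The part of growth hormone in the Igf1 values was not tested. On the first Ghr probe the hairpins ran in the order seen in Igf1, with hairpins 2 and 3 only 0.02 apart. On the other Ghr probe and on the Socs2 probe of highest signal hairpin 2 was the lowest. Another Socs2 probe ran in the order of Igf1 (-0.81, -1.06 and -1.11), and on the last Socs2 probe hairpins 2 and 3 were both at -1.08. The kinase and transcription factor genes between receptor and target (Jak2, Stat5a and Stat5b) were within 0.40 of the control on every hairpin, read to 2 decimals, and Socs3, a cytokine-induced relative, was at -0.19 ± 0.38.

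Among receptors, Igf2r, which takes IGF2 into lysosomes, read 5683 for the control and 3157, 3328 and 2162 for hairpins 1 to 3. It was lower on all 3 hairpins, at -0.96 ± 0.35 (limma adjusted p = 0.964). Insr, the insulin receptor gene, was at 0.08 ± 0.30.

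Of the 7 proteases that cut binding proteins and their inhibitors, 3 were higher on all 3 hairpins and none was lower on all 3, beside 27.6% and 24.6% of all genes tested. Pappa is among these 3 by only 0.05 on hairpin 2, at signals under 50, where features of a probe had an SD of 0.32. Htra1, a serine protease gene, split the hairpins most widely and was named after its values were seen. It read 57530 on the control array, 13544 on hairpin 1, 63605 on hairpin 2 and 16616 on hairpin 3. Hairpins 1 and 3 were 3.98-fold and 3.39-fold below the control, while hairpin 2 was slightly above it, with a mean of -1.20 ± 1.19 (limma adjusted p = 0.964). Hairpins 1 and 3 are also those on which Igfbp7 was above the control and Islr was below background. Pappa, the gene of the protease PAPP-A, was higher on the same hairpins, at 68.4 and 59.9 against 31.2 on the control array and 31.8 on hairpin 2. Igf1 and Igfbp4 did not split in this way and had hairpin 2 between hairpins 1 and 3. Any link of these values to the level of Islr was not tested, and each hairpin is 1 array. Stc2, an inhibitor gene of PAPP-A, was at 0.53 ± 0.26, and Adam12, a metalloprotease gene, at 0.85 ± 0.09 (limma adjusted p = 0.639), both higher on all 3 hairpins. The other 2 Adam12 probes were not above background on any array.

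For the genes that act inside the cell, counts on all 3 hairpins are again to be read beside 24.6% lower and 27.6% higher over all genes. Of 7 adaptors, 2 were lower and 2 higher. Shc1, which links the receptor to MAP kinase signalling, was at -0.57 ± 0.20, Grb10, an inhibitor of the receptor, at 0.40 ± 0.15, and Irs3 at 0.23 ± 0.22. Irs3 read only 33.4 for the control and 33.7, 35.1 and 45.8 for hairpins 1 to 3. Features of a probe had an SD of 0.32 at such signals, so its side of the control is uncertain. Of 11 PI3K and AKT genes, 1 was higher and 2 were lower on all 3. The regulatory subunit gene Pik3r3 was at -0.48 ± 0.25 and the catalytic subunit gene Pik3cd at 0.97 ± 0.62. The kinase genes Akt1 and Akt2 were within 0.24 of the control on every hairpin. Of 11 mTOR and FOXO genes, 2 were higher and 3 lower on all 3, with Rictor at -0.47 ± 0.30, Tsc1 at -0.46 ± 0.41 and Rheb at 0.21 ± 0.17. The Igf2 mRNA binding protein genes Igf2bp2 (0.49 ± 0.41) and Igf2bp3 (0.49 ± 0.32) were higher on all 3 on their probes of highest signal. For Igf2bp2 this was by only 0.01 on hairpin 2. Its other probe was at 0.52, -0.13 and 0.77 on hairpins 1 to 3, so hairpin 2 has no clear side. Apart from Igfbpl1, the smallest adjusted p from limma in the list was 0.412, in Socs2.

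**Figure D4:**
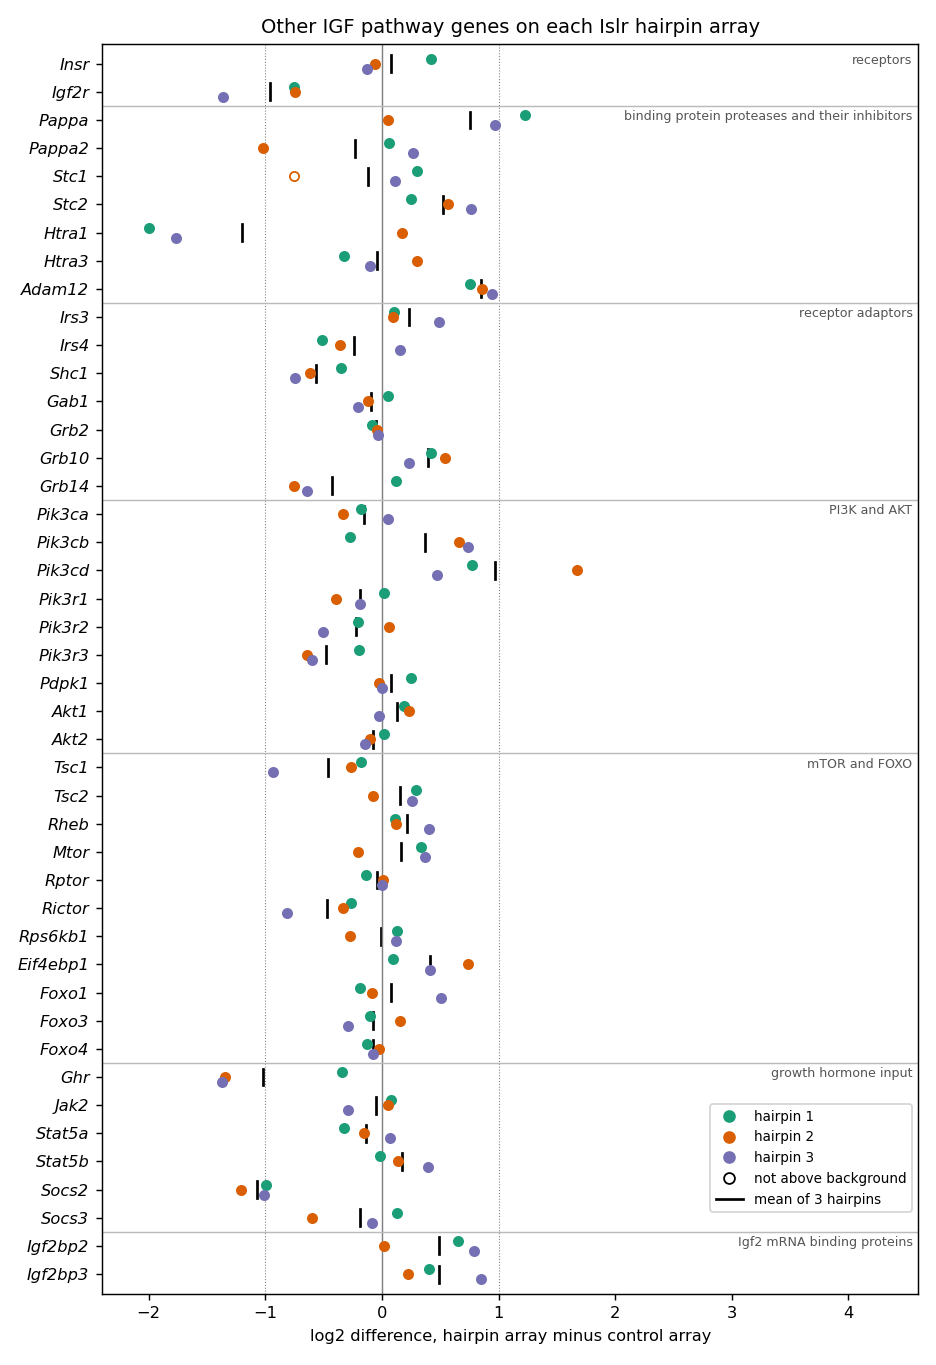
Log2 difference of each hairpin array from the control array for 44 of the 47 other IGF pathway genes tested, in blocks by role. Igfbpl1, below background on all 3 hairpins, is left out for scale, and the other two are not reported here. Coloured points are hairpins 1 to 3, open where not above background, black bars are their means, and dotted lines mark 2-fold. Socs2 has all 3 hairpins between -1.21 and -0.998, and Htra1 has hairpin 2 at 0.17 and the other two at -1.99 and -1.76.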

How the data were processed

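RNA of 4 cultures was measured on 4 one-colour Agilent arrays of 1 slide (design 028005, build mm9, per the file headers). The authors scanned them with Feature Extraction 11.5.1.1, protocol GE1_1105_Oct12, and the deposited values used are each feature's intensity after processing, background-subtracted and detrended within the array. The deposited series table is that intensity times 1 factor per array. Probes were named by matching accessions to RefSeq (28026 of 55681). Features of a probe were averaged as log2, and each array was divided by its 75th percentile. A probe was kept if well above background with the control hairpin or with all 3 others, and each gene took its probe with the highest mean. The test was limma's, version 3.58.1 under R 4.3.3 (lmFit, eBayes, two-sided, Benjamini-Hochberg over 13567 genes, threshold 0.05). The control has no spread of its own and is assumed to vary like the hairpins, which are the replicates. Their number limits the precision. The fit was also run on simulated data, whose 4 arrays were made to vary alike. That run could not check the assumption about the control. P-values measure the spread between these samples only, which may come from 1 cell preparation. Members, gene lists, tests and the naming rule were chosen with earlier results of these data known. That rule took Islr, all members, up to 3 pathway genes per role with the largest smallest-of-3 difference, those past limma's test, and the 3 nearest profiles of a member at least 2-fold away on all 3 hairpins. Only Igfbp5 met the last part, and since its hairpin signals were below background its profiles are left out. Alternatives were other scalings, background correction, filters, probe choices, thresholds, an intensity trend and each hairpin left out. A block for slide did not apply. A few genes of the pathway list enter its counts but are not reported here singly.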

Additional observations from a re-analysis of the deposited data

How the results depend on the processing

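Over the settings tried, Igf1, Igf1r, Igfbp4, Igfbp5, Igfbp6, Igfbp7 and Irs2 kept the sign of their mean difference. Of these, Igf1r, Igfbp4, Igfbp6 and Igfbp7 had hairpins on both sides of the control. The mean came as near to the control as -0.02 in Igf1r and -0.048 in Igfbp6. Igf1 ranged from -1.31 to -0.62 over 16 settings, and no adjusted p fell below 0.756. Irs1 turned to 0.094 with the mean over its probes and to 0.59 on its other probe. With a hairpin left out, Igfbp2 ranged from -0.97 to 0.36 and Igfbp3 from -0.38 to 1.34. Igfbp5 passed limma's threshold with quantile normalization (-4.69). A filter on all 4 arrays removes Igfbp2 and Igfbp5, so they have no value there. The median difference of all named probes was between -0.03 and 0.01 under every scaling.

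Over all genes limma called 47 lower. Quantile normalization gave 75 and a threshold of 0.10 gave 81 (and 2 higher). Normexp correction, no filter, both other filters, an intensity trend and each hairpin left out (range 0 to 0) gave 0. The call of Igfbpl1 ended under the same settings that gave 0 calls (0 pathway genes lower, also 0 to 0 with a hairpin left out). The 2-fold rule gave 32 higher and 229 lower genes. It gave 5 and 44 with normexp correction, 12 and 40 with a filter on all 4 arrays, 144 higher with no filter, 88 higher with a filter on at least 1 array, and 130 and 413 at 1.5-fold. With a hairpin left out it gave 43 to 86 higher and 266 to 351 lower. Other IGF pathway genes on 1 side of the control on all hairpins used numbered 13 to 16 higher and 15 to 17 lower with a hairpin left out. The cause of these shifts was not tested, except that filters change which genes are counted and a hairpin left out makes the rule easier to meet. The main filter keeps a gene seen on the control array alone but not a gene seen on only some of the hairpins. The shares of lower and of higher genes over all genes are therefore not on an equal footing.

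No paired analysis was possible because the control group has 1 array, which shares a number with 1 hairpin only by counting. Signals under 50 had the largest error between features, which limits Igfbp2 on hairpin 1, Igfbp3 on hairpin 2 and Igfbp5 on all 3 hairpins. In the pathway list this error also limits, among others, Pappa on the control array and hairpin 2, and Pik3cd on the control array. It limits Irs3 on every array and Igfbpl1 on all 3 hairpins.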
